A study of Mus musculus with 12 samples.

Results

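miR-10a, miR-10b, miR-196a and miR-196b are the microRNAs (miRNAs) of the miR-10 and miR-196 families, whose genes lie inside the Hox clusters of the mouse. They were picked out of the 12 deposited miRNA lists by name, ignoring the species prefix, arm, star and copy number. All 4 had listed entries, out of 324 miRNAs in the lists. They made up 6 of the 430 strand names (guide and star strands named separately) and 51 of the 7354 entries. The lists come from small RNA libraries of 4 mouse cell types in 3 genotypes, with 1 library for each combination, and they were read here for where these miRNAs stand in fibroblasts and in T cells and for how they stand when an RNase III enzyme of the miRNA pathway is missing. MEF are embryonic fibroblasts from E14.5 embryos with Rosa26-CreER, an inducible Cre, and were Drosha-deficient, Dicer-deficient or control. Treg are sorted CD4+CD25+ regulatory T cells and CD4 are sorted CD4+ T cells, both taken from the spleen and lymph nodes of mice with CD4-cre. DN3 are sorted thymocytes, early T cell precursors with neither CD4 nor CD8, from Lck-cre mice. The T cells were likewise Drosha-deficient, Dicer-deficient or control, and the control animals carried the same Cre as the deletion animals. The background was C57BL/6 after backcrossing, and the mice were 6 to 7 weeks old. The MEF labels carry that age too, beside the embryonic day. The series title calls the CD4 cells activated, which their own labels do not state. The labels do not say whether cells or animals were pooled, and no list measures Drosha or Dicer itself, so how complete each deletion was is not known from these data.

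A miRNA is cut from its primary transcript as a hairpin by Drosha in the nucleus, and Dicer then cuts the hairpin into a short duplex, of which mainly 1 strand is kept by an Argonaute protein. Bases 2 to 8 of the kept strand, the seed, choose its targets. Hox genes encode transcription factors that set position along the body axis, and a cell tends to keep the Hox code of the place it came from. The miR-10 and miR-196 genes sit between Hox genes, and both families are known to act on Hox mRNAs, miR-196 on Hoxb8 by cleavage. In T cells miR-10a is known as a miRNA of regulatory T cells.

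The sequences below, from RefSeq on GRCm38.p6, are shown because both pairs differ at a single base outside the seed, so that the lists tell the members apart by that base. Capitals mark the seed.
miR-10a-5p: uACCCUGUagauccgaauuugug
miR-10b-5p: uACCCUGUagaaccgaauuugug
miR-196a-5p: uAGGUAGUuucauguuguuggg
miR-196b-5p: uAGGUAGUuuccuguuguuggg
Counted from 1 at the 5′ end, miR-10b differs from miR-10a by U12A, and miR-196b differs from miR-196a by A12C. The seed ACCCUGU occurred in no RefSeq mouse miRNA other than miR-10a-5p and miR-10b-5p, and AGGUAGU in none other than miR-196a-5p and miR-196b-5p.

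Each member has its place in a Hox cluster. In coordinates of GRCm38, the miR-10a-5p strand lies at chr11:96317186-96317208 on the plus strand, and its hairpin ends 993 bp before Hoxb4 in the GENCODE M21 annotation, overlapping no gene. miR-10b-5p lies at chr2:74726074-74726096 on the plus strand, within introns of Hoxd3 and Hoxd4. miR-196b-5p lies at chr6:52230129-52230150 on the minus strand, and its hairpin overlaps an annotated exon of Hoxa9 on the same strand, between Hoxa7 and Hoxa10. miR-196a-5p has 2 gene copies with the same mature sequence. Mir196a-1, at chr11:96265187-96265208 on the plus strand, lies 6192 bp before Hoxb9 and outside any annotated gene. Mir196a-2, at chr15:102973365-102973386 on the plus strand, lies between Hoxc10 and Hoxc9 within an intron of an annotated Hoxc5 transcript. The lists give 1 value for miR-196a, so the copies cannot be told apart.

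Values are mapping counts as the authors deposited them, scaled per library to a common total on a per-million scale. A miRNA that a list leaves out had no entry reaching that list's lowest value. In the DN3 and Treg lists that lowest value was 10 per distinct sequence, so forms each below it could sum to more for an unlisted name. In the MEF lists it was 11 to 13. It was 526 in the CD4 Drosha library, 645 in the CD4 Dicer library and 20 in the CD4 control library. The steps between low values implied about 77400, 270000 and 275000 reads in the Drosha, Dicer and control MEF libraries and 7600, 6100 and 100000 in those of CD4 cells. How deeply the DN3 and Treg cells were sequenced is not known from the files. Of the fibroblast markers, all 9 (miR-143, miR-145, miR-199a, miR-199b, miR-214, miR-152, miR-31, miR-21 and miR-22) were listed in each MEF library and summed to 58.0% to 62.8% of its total. In MEF the mean log2 value was 19.1 for miR-22 and 12.9 for miR-21, so miR-22 made up most of that sum. The 9 markers also summed to 5.63% to 30.6% in the T cell libraries. In the fit described below miR-21 was lower in MEF (-2.83 log2 units, SE 0.26, adjusted p = 8.0e-05) and miR-22 higher (5.24, SE 0.26, adjusted p = 6.4e-06). Without miR-21 and miR-22, left out after their values were seen, the other 7 summed to 1.90% to 2.83% in MEF and to at most 0.862% in any T cell library. The 7 T lymphocyte miRNAs summed to 0.744% to 0.937% in MEF and to 5.52% to 29.2% in the T cells.

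miR-10a was the member listed well above the lists' lowest values in both lineages, and its values in fibroblasts and in regulatory T cells overlapped. In MEF it had 2003 mapping counts in the Drosha, 1214 in the Dicer and 1313 in the control library. In Treg it had 1684 in the Drosha, 1453 in the Dicer and 2214 in the control library. In CD4 cells it had 921 in the Drosha, 1148 in the Dicer and 70 in the control library, and in DN3 thymocytes 17 in the Drosha and 15 in the Dicer library, while the DN3 control list left it out. The MEF and Treg ranges overlap, DN3 lies far below both, and CD4 control lies between. By rank, miR-10a was in place 61 of 312 listed names in MEF control, against 44 of 197 in Treg control and 172 of 272 in CD4 control. The 95% counting interval (exact Clopper-Pearson, here and below, on implied reads and for counting error only) was 1181 to 1455 mapping counts in MEF control and 28.1 to 144 in CD4 control, where the value rests on 7 reads. In a bulk library, fewer cells that hold a miRNA and less of it per cell cannot be told apart.

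The cell types were compared with limma on log2(value + 1) over 338 miRNA names, with the 3 genotypes of a cell type as its only replicates, unlisted values set to the library's lowest listed value and the shallow CD4 deletion libraries left out. Against the mean of the 3 T cell types, miR-10a was higher in MEF by 3.56 log2 units (SE 0.29, adjusted p = 4.5e-05). That mean hides a split among the T cells. With DN3 as the only T cells the difference was 6.65 log2 units (SE 0.41, adjusted p = 8.0e-06). With Treg as the only T cells it was -0.25 (SE 0.43, adjusted p = 0.62), so no difference between MEF and Treg passed the threshold. Within the T cells, a contrast added after the values had been seen gave miR-10a 6.90 log2 units more in Treg than in DN3. Chosen from these values, it is a description and no separate test. DN3 control entered at the lowest listed value of 10, and DN3 Drosha and Dicer stood near it at 17 and 15. The sizes of 6.90 and of the 6.65 above are thus set largely by that lowest value, as is their small spread on the DN3 side. The 3.56 against all 3 T cell types takes in the same DN3 values, and its only CD4 library rests on 7 reads, so its size and p-value share this limit. In the contrast of Treg with DN3, 6.80% of the 338 names were higher in Treg at an adjusted p under 0.05. Without miR-21 and miR-22 the fibroblast markers summed to 0.0502% to 0.143% of the Treg totals, and with both of them to 18.8% to 30.6%. Their part in the miR-10a level of Treg was not tested. miR-10b, at 459 to 568 mapping counts in MEF, was left out of every Treg list.

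**Figure D1:**
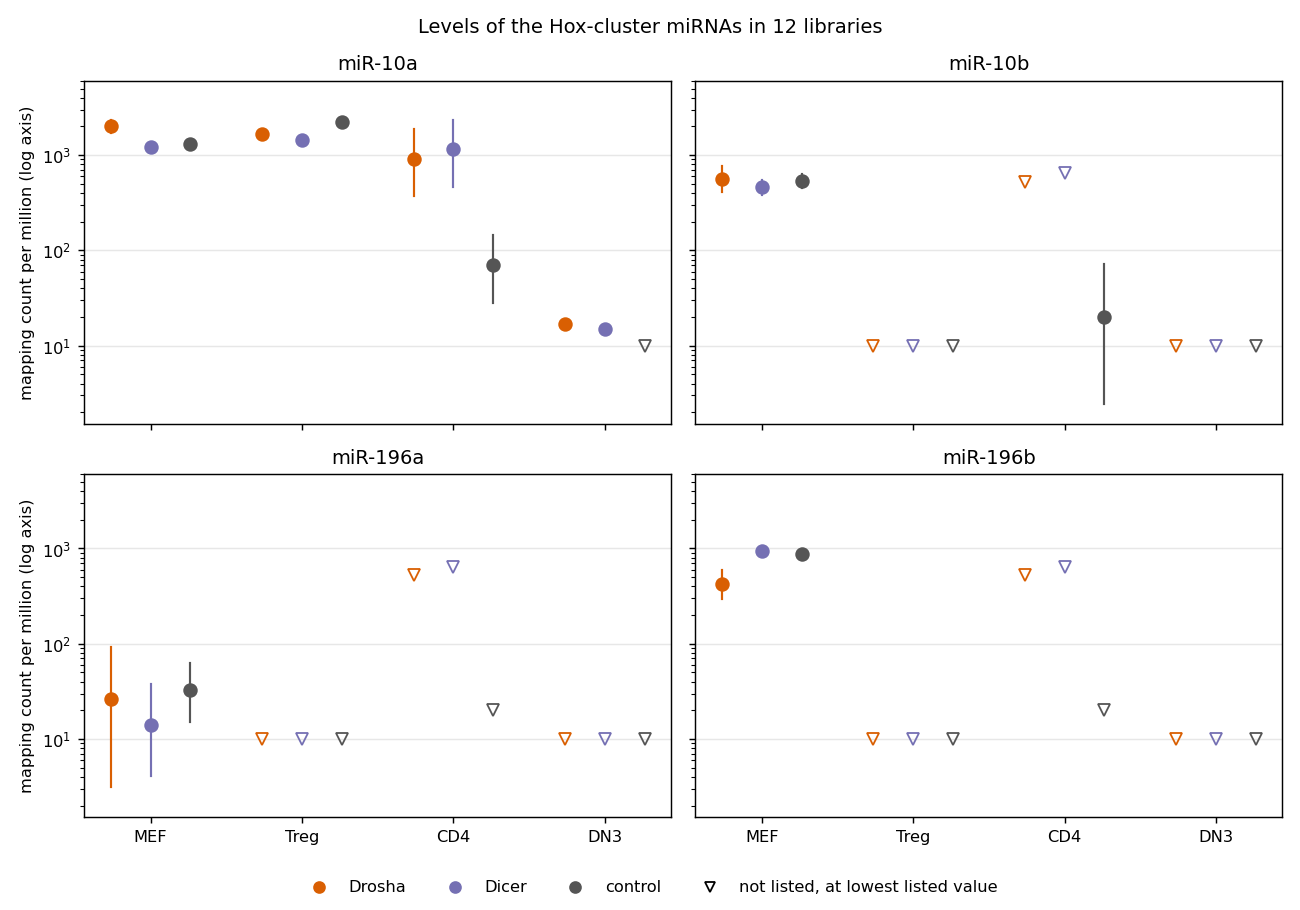
Mapping counts on the per-million scale (log axis) of the 4 miRNAs in each of 12 libraries, ordered by cell type and coloured by genotype; vertical lines are 95% counting intervals where reads could be implied, and open triangles mark libraries that do not list the miRNA, drawn at the lowest value listed there. miR-10a sits at 1214 to 2214 in both MEF and Treg, whereas miR-10b, miR-196a and miR-196b have values in MEF and, apart from miR-10b at 20 in CD4 control, none in T cells.

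miR-10b, the Hoxd member, was a fibroblast miRNA in these lists. It had 568 mapping counts in the MEF Drosha, 459 in the MEF Dicer and 535 in the MEF control library. CD4 control listed it at 20, the lowest value of that list and worth 2 reads. The other 8 T cell libraries left it out. In the CD4 deletion libraries it could not have been listed below 526 and 645 mapping counts, close to its fibroblast level, so they do not bear on it.

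miR-196b, the Hoxa member, was listed in MEF and in none of the 9 T cell libraries. The CD4 Drosha and Dicer lists could not have shown it below 526 and 645 mapping counts. In fibroblasts miR-196b had 426 mapping counts in the MEF Drosha, 948 in the MEF Dicer and 869 in the MEF control library. The Drosha value lies below the others, with a 95% interval of 294 to 599 against 836 to 1072 in Dicer and 762 to 986 in control. miR-196a, from the Hoxb and Hoxc copies, was far scarcer. It had 26 in the MEF Drosha, 14 in the MEF Dicer and 33 in the MEF control library, which rest on 2, 4 and 9 reads. No T cell library listed miR-196a, and the CD4 deletion lists could not have shown it at such values. Its star strand miR-196a* had 39, 22 and 15 in the same order, from 3, 6 and 4 reads. No loop or precursor entry of any member was listed, and no star strand of miR-10b or miR-196b.

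In that fit 34.9% of the 338 names were higher in MEF and 31.1% lower (118 and 105 names), and the median difference was -0.18, so a higher level in MEF was common. With median-of-ratios scaling 168 names were higher and 63 lower, the median moved to 0.93, and miR-10a stood at 4.71. For the other members the fit gives no test. miR-196a, miR-196a* and miR-196b entered it through the 3 MEF libraries alone, miR-10b in effect so, its value of 20 being the lowest of its list, and miR-10a* through Treg alone, with the unlisted values of the other group at the lists' lowest value and thus without spread of their own. Their fitted differences, 5.26 log2 units for miR-10b, 5.73 for miR-196b, 0.87 for miR-196a, 0.78 for miR-196a* and -0.23 for miR-10a*, are set by those lowest values. What the lists show of them is in which libraries they were listed, and at which value.

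Within a family the members were unequal in fibroblasts. The ratio of miR-10a to miR-10b in reads was 3.52 in the MEF Drosha library (95% interval 2.51 to 5.04), 2.65 in Dicer (2.15 to 3.28) and 2.46 in control (2.02 to 2.996). These intervals overlap, and a difference in the balance of the pair between libraries was not tested. miR-196b exceeded miR-196a by 16.5-fold in Drosha (4.22 to 142), 64.0-fold in Dicer (24.7 to 237) and 26.6-fold in control (13.8 to 58.8). These intervals also overlap, and the low counts of miR-196a make them wide. Such ratios hold between molecules as cloned, since ligation can favour some sequences.

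Across the families the balance did differ. The ratio of miR-10a to miR-196b was 4.70 in the MEF Drosha library (3.21 to 7.06), against 1.28 in Dicer (1.08 to 1.51) and 1.51 in control (1.28 to 1.79). The Drosha interval lies above both others, and the ratio does not depend on how the libraries are scaled. It compares single libraries, with no replicate.

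Set against the library total, the MEF Drosha library held 1.53-fold as much miR-10a as the MEF control (1.26 to 1.85), 1.06-fold as much miR-10b (0.741 to 1.499) and 0.491-fold as much miR-196b (0.330 to 0.708). The median miRNA stood lower in that library by -0.95 log2 units, so the same values were also read against it. Then miR-10a lay 1.56 log2 units above the median (1.27 to 1.83), miR-10b 1.03 above (0.51 to 1.53) and miR-196b at -0.08 (-0.65 to 0.45). Of the 5 member names listed in MEF, miR-10a, miR-10b and miR-196a* lay at least 1 log2 unit above the median and none as far below. In all, 36.6% of the 227 names compared lay at least 1 unit away in either direction, and 20.7% lay above. The interval was wholly above 1 unit for miR-10a alone, and the value of miR-196a*, 2.30, rests on 3 reads against 4.

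In Dicer-deficient fibroblasts miR-10a, miR-10b and miR-196b stayed near their control levels. Against the median miRNA, Dicer over control was 0.08 for miR-10a (-0.14 to 0.30), -0.03 for miR-10b (-0.39 to 0.32) and 0.31 for miR-196b (0.05 to 0.57). None reached 1 log2 unit, as 4.26% of the 235 names did. The strands of miR-196a were too low to be counted among those names. miR-196a stood at -1.02 on 4 reads against 9 (-3.11 to 0.89), and miR-196a* at 0.73 on 6 reads against 4 (-1.28 to 3.07). In Dicer over Drosha, miR-10a stood at -1.37 (-1.65 to -1.08), miR-10b at -0.95 (-1.46 to -0.42) and miR-196b at 0.51 (-0.02 to 1.08), where 38.9% of 221 names lay at least 1 unit away. The Drosha library takes part in both wide comparisons.

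**Figure D2:**
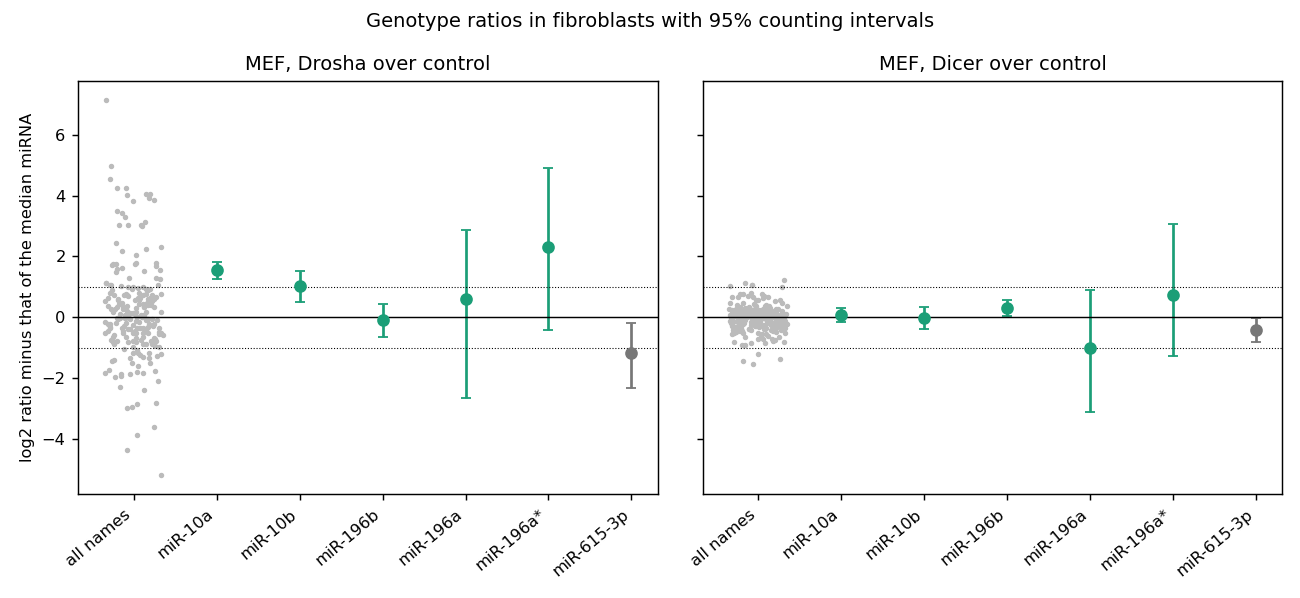
Log2 ratios between MEF libraries minus that of the median miRNA, for Drosha over control (left) and Dicer over control (right); grey points are all miRNA names compared, and the other points are the members and miR-615-3p with 95% counting intervals. For Drosha over control miR-10a lies at 1.56 and miR-196b at -0.08. For Dicer over control most names lie near 0, as do miR-10a, miR-10b and miR-196b. There miR-196a lies at -1.02 and miR-196a* at 0.73, both with wide intervals.

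In regulatory T cells miR-10a stood slightly lower in both deletion libraries than in control. Against the median miRNA it was -0.26 log2 units in Drosha over control and -0.48 in Dicer over control. Neither reached 1 unit, as 32.2% of 171 names and 15.1% of 166 names did. The miR-10a* strand, the other arm of the hairpin, had 16 in Drosha, 10 in Dicer and 15 in control, or 0.95%, 0.688% and 0.678% of the miR-10a value of the same library. These values lie at or near the lowest listed value of 10. Markers of other cells differed between the same libraries: the myeloid miR-223 held 0.0573% of the total in Treg Drosha, 0.0734% in Dicer and 0.00239% in control, and 3 erythroid miRNAs held 0.831%, 0.0975% and 0.120%. Their part in the miR-10a values was not tested.

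In CD4 cells the same 7 implied reads of miR-10a stood for 921 mapping counts in the Drosha, 1148 in the Dicer and 70 in the control library, since 1 read counts for more in a shallow library. Against the median miRNA this gave 4.91 log2 units in Drosha over control (3.18 to 6.66) and 4.09 in Dicer over control (2.36 to 5.84). Of 80 and 94 names, 66.2% and 71.3% lay at least 1 unit away there. A miRNA enters these comparisons only if it reached 526 or 645 mapping counts in the deletion library, so a name low in the control list had to be far higher to be counted.

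Over the cell types together, limma with cell type as a block gave no genotype effect past the threshold on miR-10a, the only member listed in all 3 genotypes of more than 1 cell type (Treg, CD4 and MEF). The estimate was 1.30 log2 units for Drosha minus control (SE 0.91, adjusted p = 0.42), 1.10 for Dicer minus control (SE 0.91, adjusted p = 0.99) and -0.21 for Dicer minus Drosha (SE 0.91, adjusted p = 0.94). Without the CD4 libraries these became 0.11, -0.36 and -0.47, none past the threshold. They average over cell types in which miR-10a stood higher and lower. In these fits limma called 0 of 185 names (0%) for Drosha minus control and 0 (0%) for Dicer minus control, with 37 and 4 names at an unadjusted p under 0.05. For Dicer minus Drosha it called 0.541% of the names, namely miR-320, which was looked up after the count was seen and is known to need Dicer but not Drosha.

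The DN3 and Treg lists give each distinct sequence, which shows the ends of miR-10a. The forms below are those of Treg control with a value over 100, the start being what sets the seed, which is in capitals. The reads are written with T as in the deposited lists.
22-base form, annotated start: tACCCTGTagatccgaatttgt
21-base form, start 1 base inside: aCCCTGTAgatccgaatttgt
23-base form, start 1 base inside: aCCCTGTAgatccgaatttgtgt
22-base form, start 1 base inside: aCCCTGTAgatccgaatttgtg
The first form, 1 base shorter at the 3′ end than the RefSeq strand, was the commonest in every Treg library. It held 1049 of 1684 mapping counts (62.3%) in Drosha, 883 of 1453 (60.8%) in Dicer and 1334 of 2214 (60.3%) in control. It was also the only form in DN3, at 17 in Drosha and 15 in Dicer. The RefSeq strand of 23 bases held 93 in Drosha, 89 in Dicer and 69 in control.

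The forms that start 1 base inside carry another seed, CCCUGUA, which is the seed of 0 of the 1679 mature mouse miRNAs in the RefSeq table. They summed to 384 mapping counts in Treg Drosha, 343 in Treg Dicer and 630 in Treg control. That is 22.8%, 23.6% and 28.5% of the miR-10a value. Such a share was rare among the miRNAs compared. These had a summed guide value of at least 500, a name matched to a RefSeq strand and most of the value starting near its annotated start. Of these names, 58 in Drosha, 52 in Dicer and 52 in control, 2 reached 20% in each library, or 3.45%, 3.85% and 3.85%. Among them miR-10a ranked 2 in all 3, after miR-101b at 57.3%, 59.9% and 61.5%, and the median name was at 0%. Some abundant miRNAs were not among the names compared. They include miR-21, miR-142-3p and miR-142-5p, whose mean log2 values over the T cell libraries of the fit were 16.3, 13.9 and 14.7. miR-10b could not be examined this way, since the MEF and CD4 lists give no sequences.

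The share of forms starting 1 base inside differed with the 3′ end of the molecule. Among the forms ending 1 base before the annotated 3′ end, 11.3% in Drosha, 14.3% in Dicer and 20.6% in control started 1 base inside. Among those ending at the annotated end the share was 53.5%, 53.6% and 61.5%, and among those ending 1 base past it 65.1%, 62.0% and 69.1%. In each of these 3 classes the share was lower in both deletion libraries than in control. Among the few counts ending 2 bases before the annotated end it was 27.1% in Drosha (19 of 70), 0% in Dicer (of 66) and 13.8% in control (12 of 87), each sequence being listed only from 10 up. Over all forms the share differed by -5.65 percentage points in Drosha minus control and by -4.85 in Dicer minus control. In Treg control only miR-10a and miR-101b had a share of at least 5%, among 50 and 49 names compared, so no other of these names could have fallen as far. The miRNAs left out of that comparison were not examined. miR-101b differed by -4.19 points in Drosha minus control and by -1.57 in Dicer minus control. With 1 library per genotype the difference has no replicate, and the depth behind it is unknown. The Treg Drosha list also held a 16-base form with the annotated start, at 13 mapping counts, shorter than the 19 to 30 nt that were size-selected. No other DN3 or Treg list held it.

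**Figure D3:**
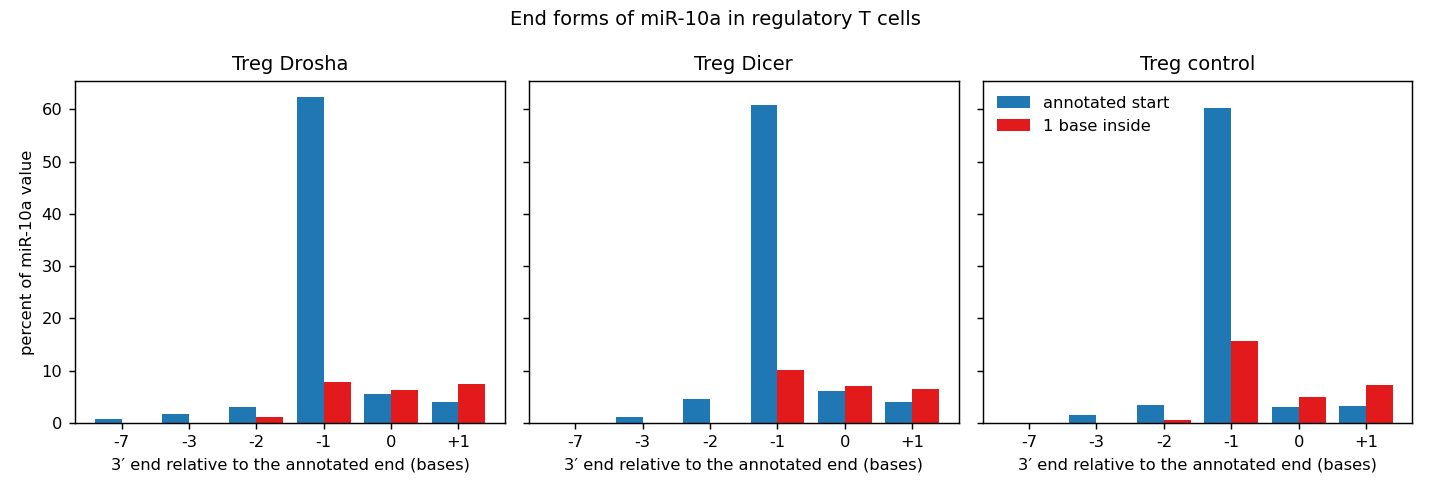
Percent of the miR-10a value in each Treg library (y axis) by 3′ end relative to the annotated end (x axis, bases) and by start (blue, annotated; red, 1 base inside). The form with the annotated start and a 3′ end at -1 holds 60.3% to 62.3% of the value in each library, and the red bar at -1 is 7.90% in Drosha, 10.1% in Dicer and 15.7% in control.

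**Figure D4:**
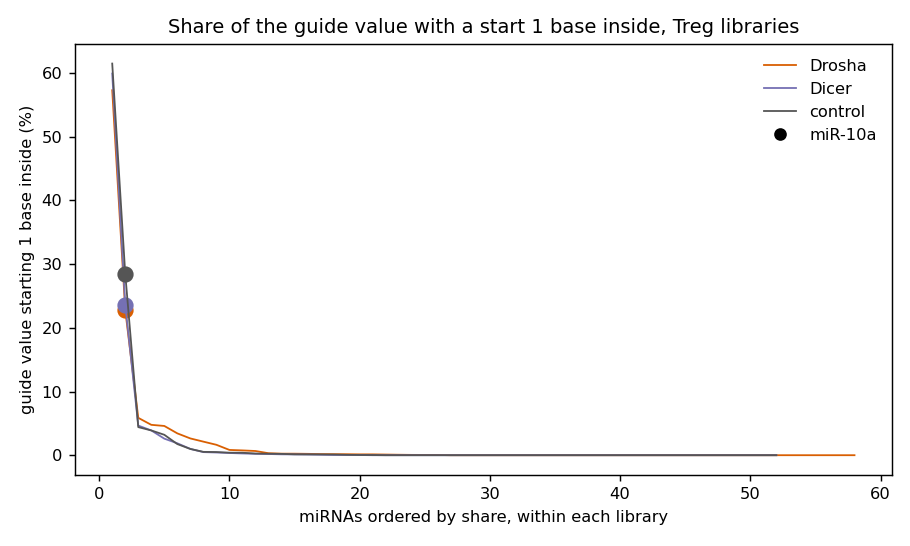
Percent of a miRNA's guide value that starts 1 base inside its annotated start (y axis), with names ordered by that percent within each Treg library (x axis). Shown are names with a summed guide value of at least 500 that could be matched to a RefSeq strand and its start, with miR-10a as large points. miR-10a is in place 2 at 22.8% in Drosha, 23.6% in Dicer and 28.5% in control.

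The near relatives of the miR-10 family outside the Hox clusters were also mostly higher in fibroblasts. miR-99a, miR-99b and miR-100 have the seed ACCCGUA, which lacks 1 base of the miR-10 seed, and each shares a stretch of 10 or 11 bases, from base 7 of miR-10, with miR-10a or miR-10b. miR-100 was listed in MEF alone, at 2519 in Drosha, 3644 in Dicer and 4524 in control. miR-99b had 3243, 7803 and 8938 in MEF against 189, 149 and 141 in Treg. In the fit it was higher in MEF than in T cells by 6.77 log2 units (SE 0.41, adjusted p = 1.5e-05). DN3 control did not list miR-99b, and DN3 Drosha and Dicer had it at 17 and 12. The size and spread of that difference thus depend in part on the lowest listed value of 10. miR-99a had 2416, 2367 and 2749 in MEF and 44, 27 and 15 in Treg. DN3 thymocytes held miR-99a at 191, 740 and 745, the reverse of miR-10a, which DN3 all but lacked and Treg held.

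miR-615-3p, from another miRNA of the Hoxc cluster in an intron of Hoxc5, was like miR-196b a fibroblast miRNA in these lists. It had 116 mapping counts in the MEF Drosha, 333 in the MEF Dicer and 502 in the MEF control library, and no T cell library listed it. The CD4 deletion lists, with lowest values of 526 and 645, could not have shown it at these values. In MEF Drosha over control miR-615-3p stood at -1.16 log2 units against the median miRNA (-2.32 to -0.20). Leaving out miR-196a, whose strands rest on 2 and 3 reads there, Drosha over control in MEF ran in order of value from miR-615-3p through miR-196b and miR-10b to miR-10a. The intervals of neighbours in that order overlap, except that the interval of miR-196b (-0.65 to 0.45) lies below that of miR-10b (0.51 to 1.53). The let-7 family, of which let-7a-5p carries AGGUAGU from base 3 instead of base 2, summed to 29627, 41434 and 42472 in the Drosha, Dicer and control MEF libraries, so that miR-196b stood far below it.

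The names most like miR-10a over the 12 libraries, by Pearson's r of log2 values among 345 candidates, were miR-125a-5p (r = 0.87), miR-99b (0.79), miR-151-5p (0.78), let-7e (0.77) and miR-182 (0.71). With the shallow CD4 deletion libraries left out, the same 5 names came first. These values describe 12 libraries that share 4 cell types and 2 file formats. miR-125a-5p, miR-99b and let-7e come from 1 cluster of 683 bp on chromosome 17, from chr17:17830194-17830876, and are thus not separate examples. miR-125a-5p had 516 in Drosha, 549 in Dicer and 845 in control of Treg, against 11, 44 and 21 in DN3. In MEF it parted from miR-10a, at 2171 in Drosha against 9669 in control, where miR-10a had 2003 against 1313.

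**Figure D5:**
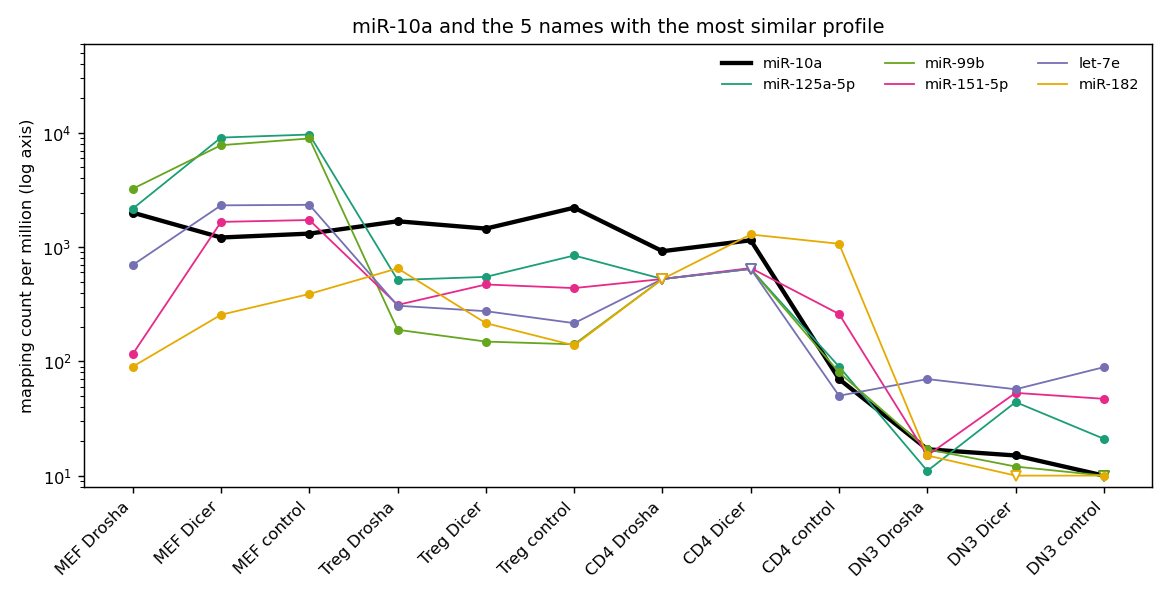
Mapping counts on the per-million scale (log axis) of miR-10a and the 5 names with the highest Pearson's r to it, over 12 libraries ordered by cell type and genotype; open triangles mark libraries that do not list the name, drawn at their lowest listed value. Of the 6 profiles, let-7e is lowest in CD4 control at 50 and the others in DN3, and in MEF Drosha miR-10a lies at 2003 where miR-125a-5p lies at 2171, against 1313 and 9669 in MEF control.

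The profiles of miR-10b, miR-196a and miR-196b over the libraries were those of many names listed in MEF and hardly elsewhere. The 5 nearest to miR-10b were miR-379 (r = 0.998), miR-300*, miR-485, miR-196b itself (0.99) and miR-540-3p. Those nearest to miR-196b were miR-540-3p (r = 0.9998), miR-218, miR-193b, miR-485 and miR-300. Those nearest to miR-196a were let-7c* (r = 0.996), miR-224, miR-125b*, miR-30a* and miR-29c*. With values at the lists' lowest in nearly all T cell libraries, r then measures little beyond presence in MEF.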

How the data were processed

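Cloning took RNA sized 19 to 30 nt whose ends were a 5′ phosphate and a 3′ hydroxyl, per the labels' protocols, and reads were mapped to miRNA loci by the authors. Neither aligner nor miRBase release nor build is named: they are not given in the sources used here. Scores were deposited by the authors, whole-number mapping counts scaled to totals of 893850 to 1027032 per library, per most file headers, with DN3 and Treg files listing each distinct sequence and CD4 and MEF files each mature miRNA. File format thus goes with cell type, and the effect of that was not tested. Guide and passenger values were summed per name. Reads were implied from steps between low values (tolerance 0.6; 82.9% of them whole in MEF Dicer, 100% in the other MEF and CD4 libraries). Within a cell type, log2 ratios (pseudocount 0.5) were set against the median name with a summed value of at least 50. limma 3.58.1 in R 4.3.3 on log2(value + 1) with Benjamini-Hochberg adjustment (threshold 0.05) was tested on simulated data first. Those data held no unlisted values, so they did not try the fits with unlisted values set to the lowest. In the genotype fit a cell type entered where its 3 libraries listed a name at 10 or more, with at least 2 such cell types; the cell type fit used names in at least 3 libraries. P-values measure the spread between genotypes or cell types, not between replicates. Named were the members, miR-615, miR-99a, miR-99b, miR-100, let-7 as a sum, and the 5 names nearest each member. Members and lists were chosen with earlier results of these data known.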

Additional observations from a re-analysis of the deposited data

Results flagged for a closer look

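The log2 ratio of miR-10a against control differed in sign between cell types under the same deletion. As a share of the deposited total, the log2 ratio of Drosha over control was 0.61 in MEF and 3.71 in CD4 cells, but -0.39 in Treg. Dicer over control was 4.03 in CD4 cells, against -0.61 in Treg and -0.11 in MEF. With 1 library per genotype and cell type, the difference between cell types was not tested. Both CD4 values rest on 7 reads in each library. A CD4 value required at least 526 mapping counts in the Drosha and 645 in the Dicer library, against 70 in control. Only a rise could therefore be counted there. In MEF the Dicer over control ratio was 0.925 (95% interval 0.794 to 1.08), which includes no change, and against the median miRNA it stood at 0.08 log2 units.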

How the results depend on the processing

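With the CD4 deletion libraries, whose lowest values are 526 and 645, in the cell type fit, 78 names were higher in MEF instead of 118, and miR-196a and miR-196a* stood at -0.25 and -0.22. With CD4 as the only T cells, which changes the T cell set as well, 75 names were called (12 higher, 63 lower), miR-10a, miR-10b and miR-196b kept their direction without passing (1.80, 1.43 and 1.87), and miR-196a and miR-196a* stood at -3.01 and -2.97. With Treg as the only T cells miR-10a stood at -0.25, and miR-196a (1.12), as with a pseudocount of 10 (0.58), no longer passed. miR-196a* passed with median-of-ratios scaling (1.88), unlisted values at 0.5 times the lowest (1.67) and DN3 as the only T cells (1.16). Scaling also put miR-10a* at 0.85 (adjusted p = 0.032), although no MEF library lists it, and gave 168 names higher instead of 118 and 63 lower instead of 105. For the names with 1 side at the lists' lowest values, passing or not passing is no evidence of a difference. Without the control libraries 132 names were called (40 higher), and without the Dicer libraries 127 (54 higher), instead of 223. miR-196a, miR-196a* and miR-196b were then in too few libraries to be fitted, as they were without the Drosha libraries, and miR-10b without the control libraries. For Dicer minus Drosha 0 names were called with unlisted values at the lowest, without CD4 or without MEF. miR-10a stood at -0.36 in Dicer minus control without CD4, and at 0.052 in Dicer minus Drosha without MEF. Relative to the median of the 51 names listed in all 12 libraries, the log2 ratio of MEF over T for miR-10a was -0.29 (Treg control), 1.57 (Treg Drosha), 6.11 (CD4 control), 2.02 (CD4 Drosha), 1.05 (CD4 Dicer), 8.95 (DN3 Drosha) and 7.45 (DN3 Dicer). Relative to the total, MEF Drosha over control was 0.61 for miR-10a, 0.086 for miR-10b and -1.03 for miR-196b. Where no construction above accounts for a change, the cause was not tested. Of the other values recomputed, 166 met the limits set for no change: a count within 1.5 times, a test on the same side of its threshold in the same direction, or a value within its counting interval or on the same side of 1 log2 unit. Beyond the blocks of the fits, cell type for genotype and genotype for cell type, the labels give no replicate numbers that could pair libraries. Depth limits miR-196a and the CD4 values.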

Other observations

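The DN3 control sample also has a list of small RNA sequences that map to genes. Of 13 Hox genes and Hox antisense transcripts looked up beside the miRNAs, it held 2 sequences for Hoxb4, 1 for Hoxb5 and 1 for Hoxc10, all sense, out of 54267 sequences. The other 10 had none listed. Over all Hox genes it held 12 sequences in 10 genes, of 10847 genes with a sequence.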
